A study of Mus musculus with 12 samples.

Results

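A set of 10 genes was followed in CD4+ T cells of healthy and lupus-prone mice: the coinhibitory receptors Pdcd1, Lag3, Havcr2, Tigit, Cd160 and Btla, the ligands Cd200 and Cd274, and Tox and Entpd1, which are known to accompany these receptors in chronically stimulated T cells. They were chosen by name, make up 10 of the 35275 genes in the table, and all 10 were found once each and reached the mean of 0.5 FPKM over all mice that was required for testing. FPKM is the number of sequenced fragments of a gene, corrected for transcript length and for the number of mapped fragments in the library, so levels of different genes can be compared on it. Purified CD4+ T cells from 12 female mice were sequenced, with 3 mice in each of 4 groups. B6 mice (C57BL/6, the healthy strain) and SLE123 mice (B6.NZMSle1/Sle2/Sle3, B6 mice with 3 lupus susceptibility intervals from NZM2410) were either left untreated or given anti-CD45RB. This antibody, MB23G2, binds an isoform of the cell surface phosphatase CD45 and was given intraperitoneally in 100 µg doses over a week. The mice were young adults according to the methods. No control antibody is named for the untreated mice, so an effect of the antibody target and of antibody injection cannot be told apart. The questions addressed here were how far these genes differ between the strains and whether the antibody changes them in either strain.

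Coinhibitory receptors are membrane proteins that T cells place on their surface after activation and that dampen signalling from the T cell receptor when they meet their ligands. PD-1, the product of Pdcd1, does so by recruiting the phosphatase SHP-2 to the receptor complex, and its ligand PD-L1 is encoded by Cd274. Naive CD4+ T cells carry little of most of them, whereas regulatory, T follicular helper and repeatedly stimulated CD4+ T cells carry much more, and BTLA is an exception that resting lymphocytes also express. Loss of several of these receptors is known to promote autoimmunity in mice.

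The libraries held 13562933 to 23641603 mapped fragments, and the 3 mice of each group differed from each other by more than counting noise. The summed level of 8 defining CD4 T cell genes was 2258 to 3116 FPKM in the 12 mice. Of the 2 defining CD8 T cell genes, Cd8a lay between 0.0855 and 1.92 FPKM. Together with Cd8b1 it summed to 11.1 to 13 FPKM in untreated B6 and 12.7 to 19.4 in treated B6. In SLE123 mice the sum was 4.23 to 5.76 FPKM untreated and 5.74 to 7.69 treated. Only 1 of the 2 could be tested. It was lower in SLE123 in both strain comparisons, beside 20.1% and 22.5% of all tested genes. Transcripts of other cells moved with the groups. All 6 plasma cell genes were higher in untreated SLE123 than in untreated B6, with a summed level of 1969.6 to 5102 FPKM against 55.8 to 75.6 FPKM, and immunoglobulin genes took 11.3% to 39.8% of all FPKM in SLE123 mice against 0.327% to 1.46% in B6 mice. The 8 B cell genes summed to 6.46 to 7.85 FPKM in untreated B6, 27.1 to 35.7 in treated B6, 64.5 to 239 in untreated SLE123 and 38 to 58.1 in treated SLE123, and no B cell gene was at 0 in all 3 mice of a group. The 8 myeloid genes summed to 4.47 to 9.3 FPKM in untreated B6 and to 48.8 to 114 in treated B6. A pair of libraries stood apart. Untreated SLE123 replicate 3 had the highest B cell and plasma cell sums, and treated SLE123 replicate 1 held the liver transcript Alb at 28.2 FPKM, as all 6 B6 libraries did at 24.7 to 30.7, while Alb was at 0 to 0.0296 FPKM in the other 5 SLE123 libraries. Except in that treated SLE123 library, Alb followed strain, so the source of Alb and strain cannot be told apart when strains are compared. In these bulk samples, more cells that carry a transcript and more transcript per cell cannot be told apart.

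**Figure D1:**
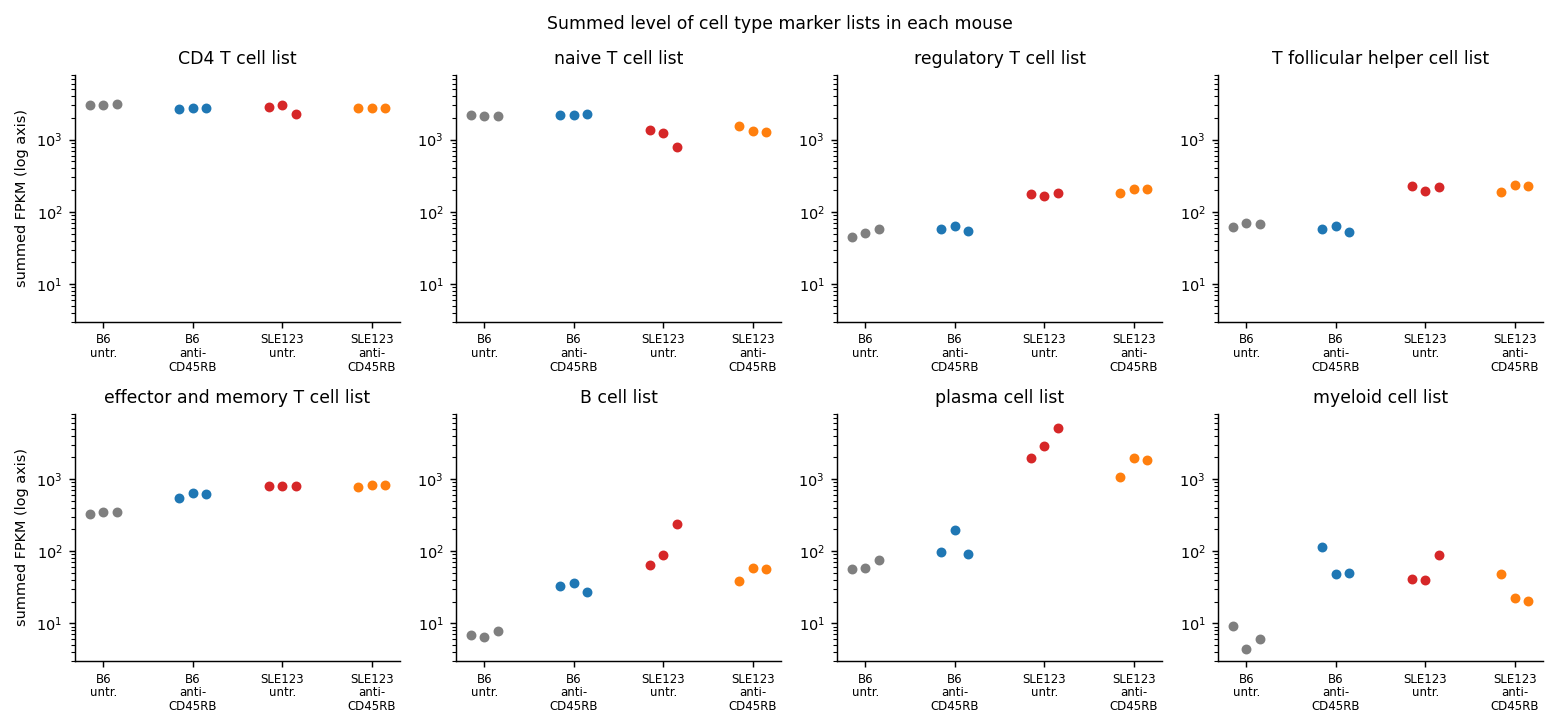
Summed FPKM on a log axis of 8 marker lists in each mouse, with 1 point per mouse and the 4 groups along the horizontal axis. The CD4 T cell list stayed between 2258 and 3116 FPKM, whereas the regulatory, T follicular helper, B cell and plasma cell lists were higher and the naive list was lower in SLE123 than in B6 mice.

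Among untreated mice, every one of the 10 genes differed between the strains. Of these, 9 were higher in SLE123 than in B6 mice and 1, Cd160, was lower (limma on log2(FPKM + 1), Benjamini-Hochberg adjusted over the 13115 genes tested). Of all tested genes, 22.8% were higher and 20.1% were lower in this comparison. Havcr2, 1 of the 9, passed the filter of 0.5 FPKM only through groups other than untreated B6. The median difference of the 10 genes was 1.63 on the log2 scale beside -0.03 for all tested genes. Lag3, Pdcd1 and Tigit had the greatest differences, with ratios of group means of 17.8, 11.2 and 8.47. The plot of FPKM by mouse shows these 3 receptors at a few FPKM to about 20 FPKM in B6 mice and above 90 FPKM in each SLE123 mouse.

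**Figure D2:**
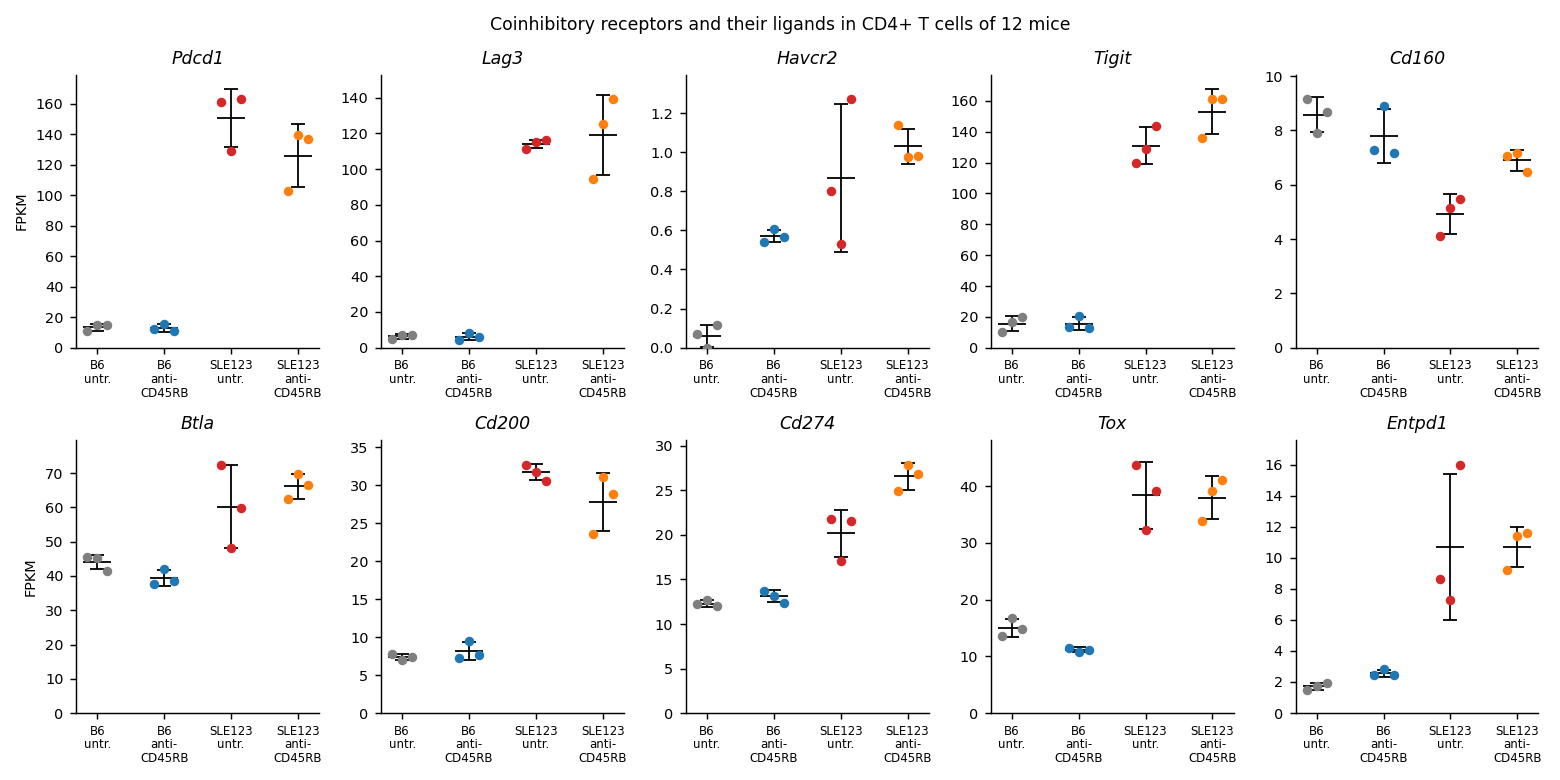
FPKM of the 10 genes in each mouse, with 1 panel per gene, 1 point per mouse, and the mean with its SD of the 3 mice as black lines. All axes start at 0. The SLE123 mice lie above the B6 mice for Pdcd1, Lag3, Tigit, Btla, Cd200, Cd274, Tox and Entpd1, and the untreated SLE123 mice lie below both B6 groups for Cd160.

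Pdcd1 (ENSMUSG00000026285, chromosome 1, 94038305 to 94052553, minus strand, GRCm38) encodes PD-1. Its level was 10.9, 14.6 and 15 FPKM in untreated B6 mice and 161, 129 and 163 FPKM in untreated SLE123 mice. In treated mice it was 12.6, 15.5 and 10.8 FPKM in B6 and 103, 139.8 and 137 FPKM in SLE123. No SLE123 mouse overlapped with a B6 mouse, while within each strain the mice with and without antibody overlapped. The difference between untreated strains was 3.40 on the log2 scale (SE 0.144, adjusted p = 8.77e-06), and between treated strains it was 3.19 (SE 0.157, adjusted p = 3.04e-05).

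The RefSeq table of promoters (GRCm38.p6) held 10 windows for 8 of the 10 genes, and Lag3 and Tox were not among them. The 250 bases before the annotated start are shown for Pdcd1 and Tigit, which had the greatest strain differences among the genes with a window, for the ligand Cd200, and for Cd160, which was lower in SLE123. They are written from 5′ to 3′ on the strand of the gene, and capitals mark the NFAT core GGAAA or its reverse complement.
Pdcd1, chr1:94052554-94052803, minus strand: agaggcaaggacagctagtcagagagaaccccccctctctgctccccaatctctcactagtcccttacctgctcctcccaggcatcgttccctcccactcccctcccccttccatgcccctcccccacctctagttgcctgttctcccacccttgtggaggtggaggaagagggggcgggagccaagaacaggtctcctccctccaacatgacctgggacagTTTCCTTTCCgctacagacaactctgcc
Tigit, chr16:43664185-43664434, minus strand: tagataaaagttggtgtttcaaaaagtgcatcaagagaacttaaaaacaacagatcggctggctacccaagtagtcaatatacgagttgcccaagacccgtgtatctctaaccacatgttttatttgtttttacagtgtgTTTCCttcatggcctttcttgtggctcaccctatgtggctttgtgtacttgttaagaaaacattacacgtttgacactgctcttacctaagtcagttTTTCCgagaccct
Cd200, chr16:45409054-45409303, minus strand: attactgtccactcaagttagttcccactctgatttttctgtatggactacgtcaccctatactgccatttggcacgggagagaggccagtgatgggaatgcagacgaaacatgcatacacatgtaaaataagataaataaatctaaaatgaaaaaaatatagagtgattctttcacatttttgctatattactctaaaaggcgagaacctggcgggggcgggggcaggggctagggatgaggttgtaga
Cd160, chr3:96829352-96829601, minus strand: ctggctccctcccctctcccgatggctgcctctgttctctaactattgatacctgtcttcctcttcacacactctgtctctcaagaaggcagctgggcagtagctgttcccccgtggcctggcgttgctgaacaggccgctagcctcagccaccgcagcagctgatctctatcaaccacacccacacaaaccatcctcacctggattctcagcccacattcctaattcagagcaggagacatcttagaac
The letters GGAAA were found on either strand in 5 of the 10 windows and in 55.6% of all 32851 windows of this length. There were 2 matches each in the windows of Pdcd1 and Tigit and in the second Entpd1 window, which is not printed. The Cd274 window and the second Cd160 window, which are not printed, held 1 match each. The AP-1 letters TGANTCA were found in 1 of the 10 windows, that of Havcr2, and in 6.75% of all windows. The STAT letters TTCNNNGAA were found in 1, the second Cd160 window, which is not printed, and in 7.02% of all windows. The NR4A letters AAAGGTCA were found in 0 of the 10 windows and in 1.34% of all windows. All 4 motifs were searched on both strands, and their matches may overlap one another.

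Lag3 (ENSMUSG00000030124, chromosome 6, 124904361 to 124911705) encodes a receptor that binds MHC class II. It was at 4.71, 7.29 and 7.2 FPKM in untreated B6 mice and at 111, 115 and 116 FPKM in untreated SLE123 mice. In treated mice it was at 4.42, 8.09 and 6.06 FPKM in B6 and at 94.4, 125 and 139 FPKM in SLE123. The strains were separate under both conditions, and Lag3 had the greatest strain difference of the 10 genes, at 3.98 on the log2 scale in untreated mice (SE 0.146, adjusted p = 4.95e-06) and 4.08 in treated mice (SE 0.21, adjusted p = 3.47e-05). The untreated SLE123 mice lay within a narrow range, with an SD of 2.44 FPKM around 114 FPKM, and the treated SLE123 mice were more spread, with an SD of 22.6 FPKM around 119 FPKM.

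Tigit (ENSMUSG00000071552, chromosome 16, 43648867 to 43664146) encodes a receptor for the nectin-like protein CD155. Its level was 10.1, 16.5 and 19.8 FPKM in untreated B6 and 120.0, 129 and 144 FPKM in untreated SLE123 mice. Treated mice had 13.6, 20.4 and 12.9 FPKM in B6 and 136, 161 and 161 FPKM in SLE123. The strains did not overlap, with a difference of 3.05 on the log2 scale in untreated mice (SE 0.217, adjusted p = 6.81e-05) and 3.23 in treated mice (SE 0.166, adjusted p = 3.47e-05). Pvr, which encodes CD155 and was named after its values were seen, was lower in untreated SLE123 mice, going from 23.9 ± 1.03 FPKM in B6 to 9.35 ± 1.48 FPKM in SLE123 mice (SD, n = 3 each), a log2 difference of -1.27 (adjusted p = 0.000175 by limma).

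Havcr2 (ENSMUSG00000020399, chromosome 11, 46454935 to 46481255) encodes TIM-3, a receptor of effector T cells that macrophages and dendritic cells also express. It was the lowest of the 10 genes in every group, and its values rest on few fragments. The untreated B6 mice had 3, 0 and 5 fragments, which are 0.0683, 0 and 0.114 FPKM. Untreated SLE123 mice had 36, 27 and 82 fragments, or 0.801, 0.531 and 1.27 FPKM. The difference was 0.80 on the log2(FPKM + 1) scale (SE 0.165, adjusted p = 0.00745), which understates changes of genes this low. In the treated mice Havcr2 was at 0.542, 0.606 and 0.568 FPKM in B6 and at 1.14, 0.975 and 0.982 FPKM in SLE123, again without overlap (log2 difference 0.37, SE 0.0869, adjusted p = 0.0112). Havcr2 passed the filter only through the groups in which it was higher, since the untreated B6 mean was 0.0608 FPKM. Without untreated SLE123 replicate 3, the highest of its group, the difference between untreated strains was 0.65 (adjusted p = 0.0102).

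Cd160 (ENSMUSG00000038304, chromosome 3, 96798763 to 96829351) encodes a receptor of NK cells and T cells that shares the ligand HVEM with BTLA, and was the only one of the 10 genes that was lower in untreated SLE123 mice. It was at 9.14, 7.9 and 8.68 FPKM in untreated B6 and at 4.11, 5.16 and 5.49 FPKM in untreated SLE123 mice. The difference was -0.70 on the log2 scale (SE 0.118, adjusted p = 0.00329), and it was -0.54 (adjusted p = 0.0538) when the libraries were rescaled to the same sum of the 8 CD4 T cell genes. In treated mice the levels were 7.26, 8.91 and 7.18 FPKM in B6 and 7.06, 7.17 and 6.46 FPKM in SLE123. These ranges lay next to each other, and the difference of -0.15 had a 95% interval of -0.36 to 0.06 and did not pass the test (adjusted p = 0.203). The 6 NK cell genes summed to 62.5 to 67.2 FPKM in untreated B6 and 44.2 to 52.9 FPKM in untreated SLE123 mice. They did not move as 1 set, since 1 was higher and 3 were lower in untreated SLE123. Of all tested genes 22.8% were higher and 20.1% lower there. The part of NK cells in the Cd160 difference was not tested.

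Btla (ENSMUSG00000052013, chromosome 16, 45224315 to 45257670) encodes an HVEM receptor of resting T and B cells, and it was the highest of the 10 genes in B6 mice. Its level was 45.5, 45.2 and 41.6 FPKM in untreated B6 and 72.5, 48.3 and 59.8 FPKM in untreated SLE123 mice. The difference of 0.42 on the log2 scale (SE 0.142, adjusted p = 0.0468) was close to the threshold, and it was 0.05 (adjusted p = 0.838) after rescaling to TPM, 0.42 (adjusted p = 0.1) without untreated SLE123 replicate 3 and 0.28 (adjusted p = 0.0722) without untreated SLE123 replicate 1. Leaving out any 1 of the untreated B6 mice also ended the call, with adjusted p between 0.105 and 0.139. Treated mice had 37.6, 42 and 38.6 FPKM in B6 and 62.5, 69.7 and 66.5 FPKM in SLE123. Here the strains were further apart, at 0.74 on the log2 scale (SE 0.0585, adjusted p = 0.000132).

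The ligands were higher in SLE123 as well. Cd200 (ENSMUSG00000022661, chromosome 16, 45382135 to 45409053) encodes the ligand of the inhibitory receptor CD200R and is a marker of T follicular helper cells. It was at 7.76, 7 and 7.36 FPKM in untreated B6 and at 32.7, 31.8 and 30.6 FPKM in untreated SLE123 mice, a ratio of means of 4.3. Treated mice had 7.29, 9.5 and 7.7 FPKM in B6 and 23.6, 31.1 and 28.8 FPKM in SLE123. The log2 difference was 1.97 in untreated mice (SE 0.0759, adjusted p = 6.43e-06) and 1.65 in treated mice (SE 0.125, adjusted p = 0.000107), and no B6 mouse reached the lowest SLE123 mouse.

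Cd274 (ENSMUSG00000016496, chromosome 19, 29367455 to 29388095) encodes PD-L1, which T cells, B cells and myeloid cells all express. Its level was 12.3, 12.7 and 12 FPKM in untreated B6 and 21.8, 17.1 and 21.6 FPKM in untreated SLE123 mice. In treated mice it was 13.7, 13.2 and 12.4 FPKM in B6 and 24.9, 27.9 and 26.9 FPKM in SLE123. The log2 difference was 0.66 in untreated mice (SE 0.107, adjusted p = 0.00274) and 0.97 in treated mice (SE 0.0594, adjusted p = 5.64e-05), and in untreated mice it was 0.30 (adjusted p = 0.109) after rescaling to TPM. An annotated antisense gene overlaps Cd274, another overlaps Tox, and a gene within an intron of Entpd1 shares its strand. Whether counting used strand is not given in the sources used here, so fragments of these genes and their partners cannot be told apart.

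Tox (ENSMUSG00000041272, chromosome 4, 6686353 to 6991557) encodes a DNA-binding protein that is needed for the exhausted state of T cells and is also present in T follicular helper cells. It was at 13.5, 16.8 and 14.8 FPKM in untreated B6 and at 43.8, 32.2 and 39.2 FPKM in untreated SLE123 mice. Treated mice had 11.5, 10.7 and 11.2 FPKM in B6 and 33.9, 39.2 and 41.1 FPKM in SLE123. The strains did not overlap, and the log2 difference was 1.29 in untreated mice (SE 0.13, adjusted p = 0.000317) and 1.68 in treated mice (SE 0.0753, adjusted p = 2.27e-05).

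Entpd1 (ENSMUSG00000048120, chromosome 19, 40612366 to 40741602) encodes CD39, an enzyme that breaks down extracellular ATP and is carried by regulatory T cells, B cells and myeloid cells. Its level was 1.47, 1.73 and 1.96 FPKM in untreated B6 and 8.64, 7.31 and 16 FPKM in untreated SLE123 mice. Treated mice had 2.46, 2.82 and 2.42 FPKM in B6 and 9.23, 11.4 and 11.6 FPKM in SLE123. The log2 difference was 2.03 in untreated mice (SE 0.254, adjusted p = 0.00088) and 1.71 in treated mice (SE 0.0983, adjusted p = 4.53e-05). The highest Entpd1 value was in untreated SLE123 replicate 3, the mouse with the highest B cell sum of 239 FPKM, and without it the difference between untreated strains was 1.72 (adjusted p = 0.000302). Nt5e, which encodes CD73, the enzyme that acts after CD39 on the path to adenosine, was also higher in untreated SLE123, with 73.4 ± 14.3 FPKM against 14.3 ± 1.43 FPKM (SD, n = 3 each).

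Between treated mice, 9 of the 10 genes were higher in SLE123 than in B6 mice and 0 were lower. Of all tested genes, 29.6% were higher and 22.5% were lower in this comparison. The median difference of the 10 genes was 1.67 on the log2 scale beside 0.03 for all tested genes. Without treated SLE123 replicate 1, the SLE123 library with Alb at the level of the B6 libraries, the same number, 9, passed the test. Without untreated SLE123 replicate 3 the comparison of untreated strains kept 9 of 10 calls and lost Btla. The cell type lists moved between the strains beside these genes. Between untreated mice, 7 of 8 regulatory T cell genes and 7 of 7 T follicular helper genes were higher in SLE123. So were 7 of 8 effector and memory T cell genes. There 6 of 7 naive T cell genes were lower, and of all tested genes 22.8% were higher and 20.1% lower. The part of a changed mix of CD4+ T cells and of B and plasma cells in the strain differences was not tested. After rescaling to the 8 CD4 T cell genes, 9 of the 10 genes differed between untreated strains.

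**Figure D3:**
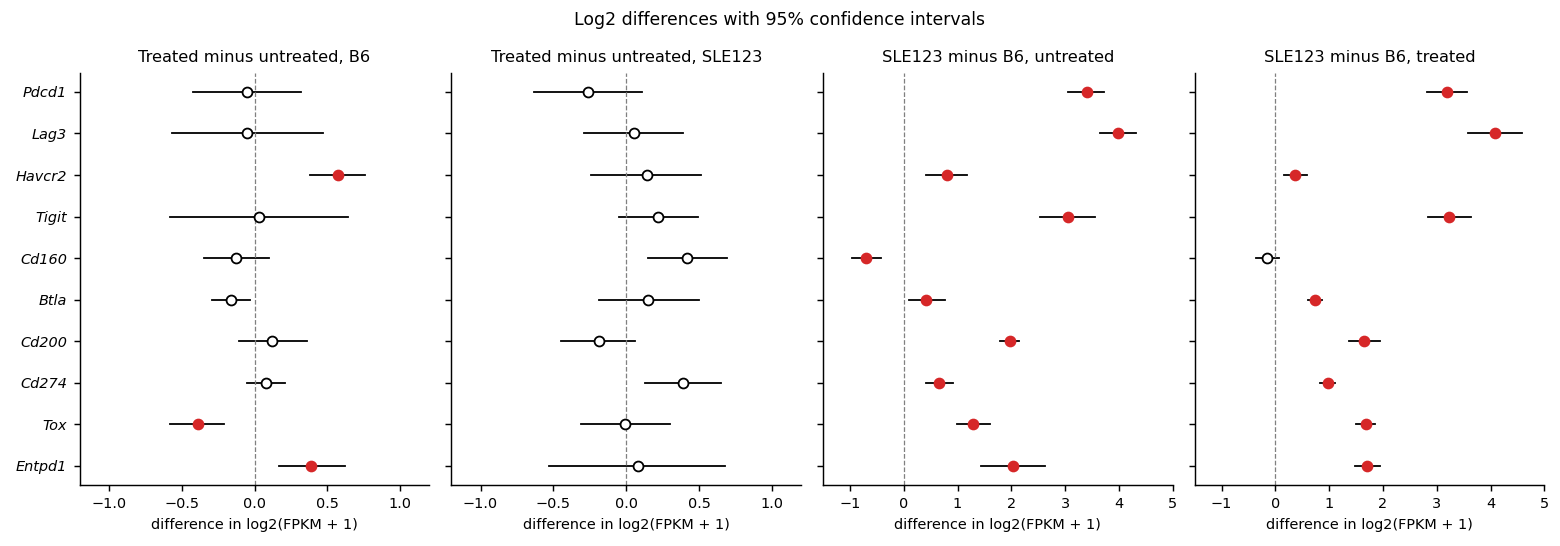
Differences in log2(FPKM + 1) of the 10 genes in 4 comparisons, with 95% confidence intervals as lines and filled points where the adjusted p was under 0.05. The scale of the 2 treatment panels differs from that of the 2 strain panels. Nearly all strain differences lie to the right of 0, and the treatment differences lie between -0.39 and 0.57.

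The order of the levels changed between the strains. In untreated B6 mice Btla led with a mean of 44.1 FPKM, followed by Tigit, Tox, Pdcd1 and Cd274 at 15.5 to 12.3 FPKM. Each of these 4 overlapped with its neighbour in the order. Cd160, Cd200, Lag3, Entpd1 and Havcr2 came next, of which Cd200 and Lag3 overlapped. In untreated SLE123 mice Pdcd1 led at 151 ± 19 FPKM, ahead of Tigit at 131 ± 12.1 and Lag3 at 114 ± 2.44 FPKM (SD, n = 3 each), and Pdcd1 and Tigit overlapped. Btla came next at 60.2 FPKM. Cd160 lay above Entpd1 in untreated B6 and below it in both SLE123 groups, and Havcr2 was last in all 4 groups. In treated SLE123 mice Tigit, Pdcd1 and Lag3 were again the first 3, with overlapping neighbours.

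**Figure D4:**
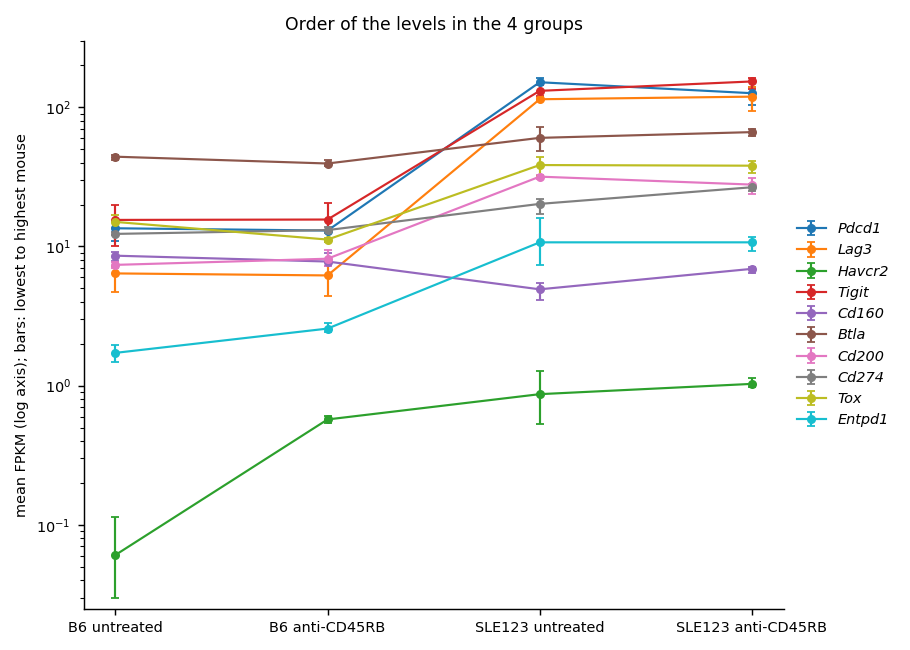
Mean FPKM of the 10 genes on a log axis in the 4 groups, with bars from the lowest to the highest mouse. The lines only join the points of a gene. The lower bar of Havcr2 in untreated B6 is cut short because 1 mouse was at 0. Btla is highest in both B6 groups, and Pdcd1, Tigit and Lag3 lie above it in both SLE123 groups.

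In B6 mice, 3 of the 10 genes passed the test for anti-CD45RB treatment. Havcr2 and Entpd1 rose and Tox fell, and the other 7 genes did not pass the test. Of all tested genes, 8.74% rose and 6.12% fell in treated B6 mice, and 2 of the 10 genes rose and 1 fell. Havcr2, 1 of the 2 that rose, passed the filter on low values only through groups other than untreated B6. The median difference of the 10 genes was -0.01 on the log2 scale beside -0.00 for all genes.

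Havcr2 rose from 3, 0 and 5 fragments in untreated B6 to 20, 27 and 26 fragments in treated B6 mice. Summed over 3 mice each, these were 8 fragments (95% Poisson interval 3.45 to 15.8, counting error only) against 73 (57.2 to 91.8). On the log2(FPKM + 1) scale the difference was 0.57 (SE 0.0787, adjusted p = 0.00685), and it kept its call without any single mouse. The 5 myeloid genes that could be tested were all higher in treated B6 mice. So were 6 of 7 B cell genes and 4 of 5 dendritic cell genes, beside 8.74% of all tested genes. Of 8 effector and memory T cell genes 5 were higher too, with a sum of 545 to 631 FPKM against 332 to 351 FPKM in untreated B6. Effector T cells, dendritic cells and myeloid cells express Havcr2, and their part in its rise was not tested. Tox was lower in each treated than in each untreated B6 mouse, at 11.2 ± 0.425 against 15 ± 1.64 FPKM (SD, n = 3 each), a log2 difference of -0.39 (SE 0.0791, adjusted p = 0.022). Entpd1 was higher in each treated mouse, at 2.57 ± 0.22 against 1.72 ± 0.245 FPKM (SD, n = 3 each), a log2 difference of 0.39 (SE 0.0969, adjusted p = 0.0389). B cells and myeloid cells, whose genes rose in these mice, also express Entpd1, and their part in its rise was not tested. The call of Tox was lost without any 1 of untreated replicates 4 and 5 and treated replicates 3 and 5, with adjusted p between 0.0543 and 0.0652. The call of Entpd1 was kept only without untreated replicate 5 and was lost without any other mouse, with adjusted p between 0.0736 and 0.109. With all 12 mice in one fit the adjusted p was 0.322 for Entpd1 and 0.0654 for Tox, and with no filter on low values 0.0958 and 0.0744. Of the T follicular helper genes 2 of 7 fell in treated B6 mice, beside 6.12% of all tested genes. The part of these T follicular helper genes in the Tox difference was not tested. Tox was also not called by limma, at -0.23 (adjusted p = 0.056), after rescaling to CD4 T cell genes. Of those genes 4 of 8 were themselves lower in treated B6 mice, beside 6.12% of all tested genes.

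Pdcd1, Lag3 and Tigit, the receptors that differed most between the strains, had treatment differences near 0 in B6 mice. The values were -0.05 for Pdcd1 (95% interval -0.42 to 0.32), -0.05 for Lag3 (-0.57 to 0.47) and 0.03 for Tigit (-0.58 to 0.64) on the log2 scale. These intervals are wide, so that changes of up to about 0.6 in either direction were not excluded for Tigit with 3 mice a group. Btla had a difference of -0.16 (95% interval -0.29 to -0.03, adjusted p = 0.0972), Cd160 of -0.13, Cd200 of 0.12 and Cd274 of 0.08, and none of these passed the test.

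In SLE123 mice, 0 of the 10 genes passed the test for treatment with limma, 2 had an unadjusted p under 0.05, and voom on the recovered fragments called 0 as well. Of all 13115 tested genes, 0.0381% passed in either direction and 1369 had an unadjusted p under 0.05. The pair with the low unadjusted p were Cd160 and Cd274. Cd160 was at 4.92 ± 0.719 FPKM in untreated and 6.9 ± 0.381 FPKM in treated SLE123 mice (SD, n = 3 each), a difference of 0.42 on the log2 scale (95% interval 0.15 to 0.69) with an adjusted p of 0.437 by limma. Cd274 was at 20.2 ± 2.66 FPKM in untreated and 26.6 ± 1.54 FPKM in treated mice (SD, n = 3 each), a difference of 0.39 (95% interval 0.13 to 0.65) with an adjusted p of 0.443 by limma. Each treated mouse was above each untreated mouse for both genes, and neither passed after adjustment over 13115 genes. Beside Cd160, the NK cell genes summed to 44.2 to 52.9 FPKM in untreated and 64.7 to 76.4 FPKM in treated SLE123 mice, and beside Cd274 the B cell genes summed to 64.5 to 239 and 38 to 58.1 FPKM. Of the 6 NK cell genes and the 7 B cell genes tested, 0 passed the test, beside 0.0381% of all tested genes. The part of NK cells and B cells was not tested. Pdcd1 had a difference of -0.26 (95% interval -0.63 to 0.11), Cd200 of -0.19 (-0.45 to 0.06) and Tigit of 0.22 (-0.05 to 0.49). Lag3, Havcr2, Btla, Tox and Entpd1 lay between -0.01 and 0.15, and the interval of Entpd1, from -0.53 to 0.68, was the widest.

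The treatment effect was then compared between the strains as an interaction, the effect in SLE123 minus that in B6, on all 12 mice. Of the 10 genes 0 passed the test with limma, 4 had an unadjusted p under 0.05, and voom called 0. Of all 13115 tested genes, 3.64% passed and 3298 had an unadjusted p under 0.05. Cd160 came closest, with an interaction of 0.55 (SE 0.15, 95% interval 0.22 to 0.88, adjusted p = 0.0665), which combines a value of -0.13 in B6 and 0.42 in SLE123 mice. Tox had 0.39 (adjusted p = 0.166), Cd274 0.31 (adjusted p = 0.157) and Havcr2 -0.43 (adjusted p = 0.18) by limma. Without untreated SLE123 replicate 1, 3 genes were called, namely Cd160 (0.45), Btla (0.45) and Tox (0.48). A difference between the strains in the effect of treatment was thus not shown for the 10 genes with all mice. The 4 group comparisons share mice, since each group enters a strain and a treatment comparison, and they are not independent of each other.

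Other genes of the pathway were read from 5 lists. Of 14 other inhibitory receptors, 13 were in the table and tested. Between untreated strains 4 were higher and 3 lower in SLE123 mice, beside 22.8% and 20.1% of all tested genes, with a median log2 difference of 0.29. Ctla4, which competes with CD28 for its ligands, was at 87 ± 2.93 FPKM in SLE123 against 17 ± 3.95 FPKM in B6 mice (SD, n = 3 each), a log2 difference of 2.31, and Cd96, another CD155 receptor, was lower by a log2 difference of -0.88. In treated B6 mice 5 of the 13 rose and 3 fell, beside 8.74% and 6.12% of all tested genes, with a median log2 difference of 0.06. Klrg1, a marker of terminally differentiated T and NK cells, rose from 0.87 ± 0.0695 to 4.88 ± 0.457 FPKM, Cd244a, an NK cell receptor, from 0.226 ± 0.0812 to 1.81 ± 0.102 FPKM, and Cd300a, a receptor of myeloid and lymphoid cells, from 0.219 ± 0.0258 to 1.36 ± 0.358 FPKM (SD, n = 3 each). Cd244a passed the filter on low values only through treated B6 mice, since the other groups averaged 0.226, 0.498 and 0.242 FPKM, and that group had to be higher for it to be tested. Klrg1, Cd244a and Cd300a are well known from NK and myeloid cells, and the NK cell genes summed to 90.8 to 114 FPKM in treated and 62.5 to 67.2 FPKM in untreated B6 mice. Of the 6 NK cell genes 4 rose and 1 fell, and 5 of 8 effector and memory T cell genes rose, beside the same shares of all tested genes. The part of NK, myeloid and effector T cells was not tested.

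Of 15 ligands and binding partners 10 could be tested, with a median log2 difference of 0.14 between untreated strains. In this comparison 5 were higher and 2 lower in SLE123 mice, beside 22.8% and 20.1% of all tested genes. Pdcd1lg2, which encodes PD-L2, the other ligand of PD-1, was at 8.39 ± 1.66 against 2.16 ± 0.344 FPKM, and Lgals3, a galectin that binds LAG-3, at 6.66 ± 1.83 against 1.39 ± 0.276 FPKM (SD, n = 3 each). With antibody 1 of the 10, Lgals3, rose in B6 mice, by 1.82 on the log2 scale. A further 2 fell, Pvr by 0.27 and Tnfrsf14, which encodes HVEM, by 0.23. Of all tested genes 8.74% rose and 6.12% fell with antibody in B6 mice. Without single mice Pvr lost its call in 4 of 6 fits and Tnfrsf14 in 5 of 6, with adjusted p of up to 0.0765 and 0.114. After rescaling to CD4 T cell genes Pvr was at -0.11 (adjusted p = 0.223) and Tnfrsf14 at -0.06 (adjusted p = 0.497). Of 10 costimulatory receptors 4 were higher and 2 lower in untreated SLE123, beside 22.8% and 20.1% of all tested genes, and the median log2 difference of the list was 0.00. The greatest were Tnfrsf4 (OX40) at a log2 difference of 1.97 and Icos at 1.57. Cd28 was not among them, with a log2 difference of -0.07, and in treated B6 mice it fell by 0.23. This call was lost in 5 of 6 fits without single mice, with adjusted p between 0.0586 and 0.0999, and Cd28 was at -0.06 (adjusted p = 0.489) after rescaling to CD4 T cell genes.

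Of 16 transcription factors of chronic stimulation, 10 were higher and 2 lower in untreated SLE123 mice, beside 22.8% and 20.1% of all tested genes. The median log2 difference of the list was 0.76. Tox2, a relative of Tox, was at 35.5 ± 2.32 FPKM against 4.47 ± 1.12 FPKM in B6, Irf4 at 37.9 ± 13.1 against 4.76 ± 0.361 FPKM and Maf at 58.8 ± 3.34 against 11.8 ± 1.61 FPKM (SD, n = 3 each). Irf4 is also a plasma cell gene. In treated B6 mice Tbx21 (0.48) and Batf (0.26) rose and Nr4a3 (-0.49) and Tcf7 (-0.21) fell on the log2 scale. Of all tested genes 8.74% rose and 6.12% fell in these mice. Tbx21 kept its call without any single mouse. Batf lost it in 5 of 6 such fits, with adjusted p between 0.0628 and 0.128, and Nr4a3 in 3 of 6, with adjusted p between 0.0557 and 0.0822. Tox2 had a difference of -0.76 with an adjusted p of 0.0545 by limma and so did not pass. Of 11 inhibitory signalling proteins 5 were higher and 0 lower between untreated strains (limma), led by Rgs16, a regulator of G protein signalling, at 41.4 ± 7.54 against 2.89 ± 0.77 FPKM, and by Ptpn11, which encodes SHP-2, at 64.4 ± 7.29 against 22 ± 1.43 FPKM (SD, n = 3 each). The median log2 difference of this list was -0.02, and of all tested genes 22.8% were higher and 20.1% lower between untreated strains. With antibody, 6.12% of all tested genes fell in B6 mice, and 1 of the 11 genes of this list, Sh2d1a, fell by 0.21. Sh2d1a is also in the T follicular helper list. Its call was lost without any 1 of the 6 mice, with adjusted p between 0.059 and 0.0983, and it was at -0.05 (adjusted p = 0.528) after rescaling to CD4 T cell genes. In treated SLE123 mice 0 genes of any of the 5 lists passed the test with limma or with voom. Between 1 and 3 genes of each had an unadjusted limma p under 0.05, beside 1369 of all 13115 tested genes.

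**Figure D5:**
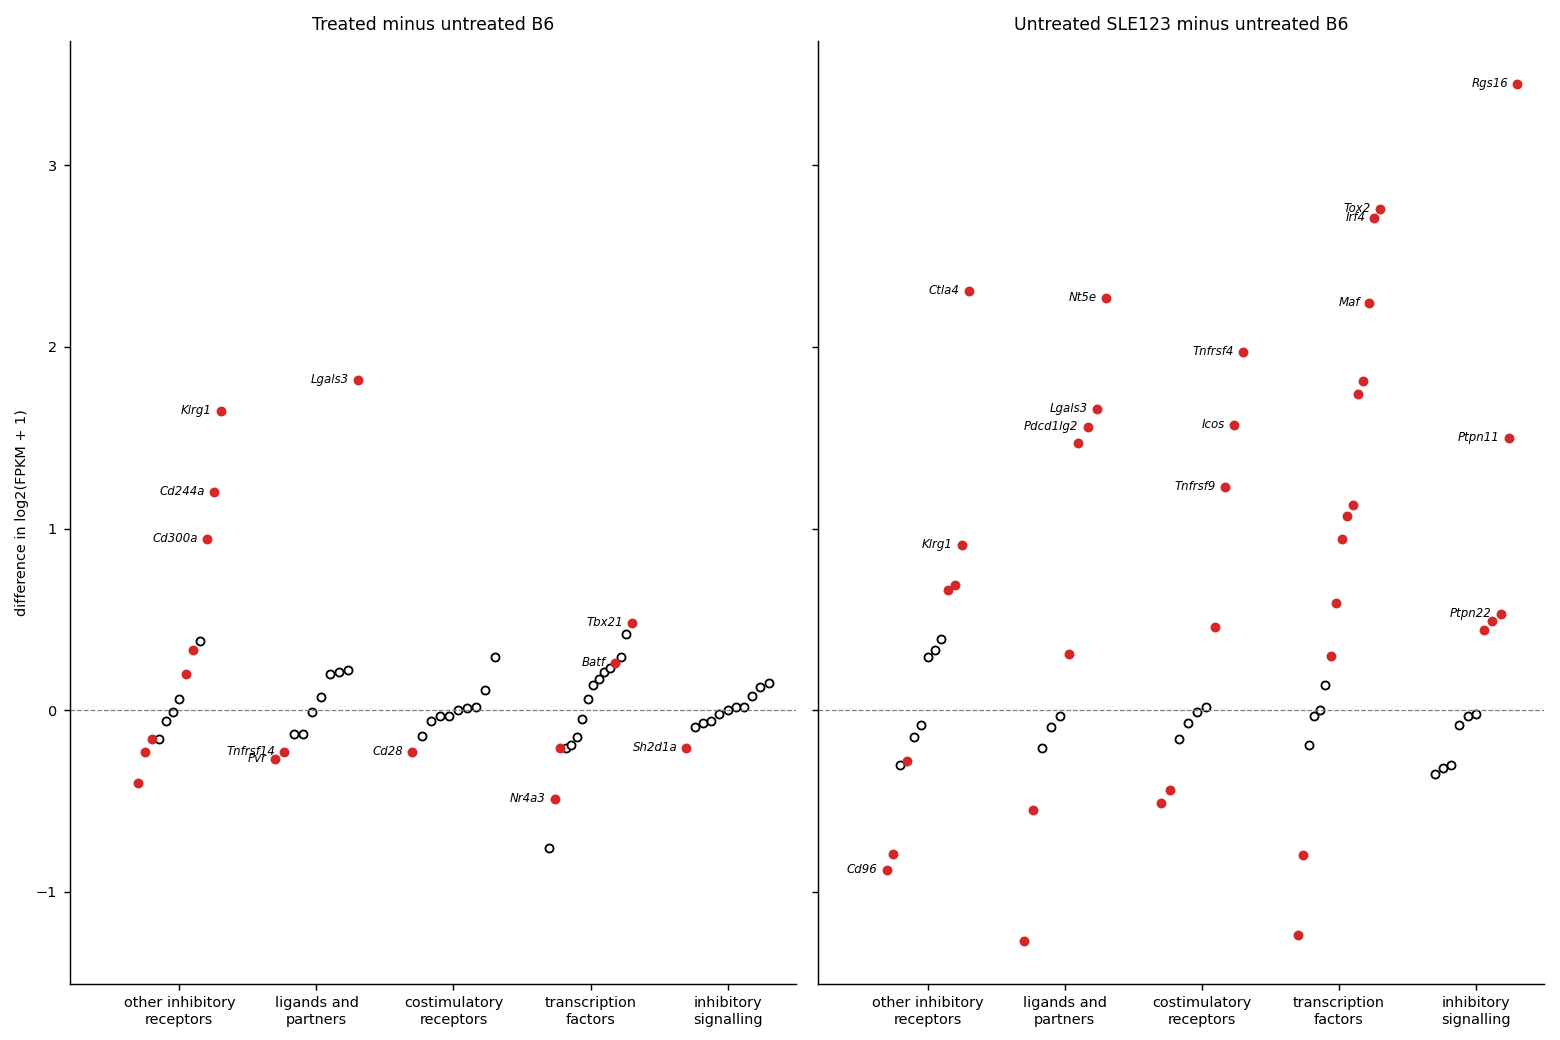
Differences in log2(FPKM + 1) of the tested genes of 5 lists in treated against untreated B6 mice (left) and in untreated SLE123 against untreated B6 mice (right). Each point is a gene, filled where the adjusted p was under 0.05, with the 3 genes furthest from 0 among the filled ones of each list named. Klrg1, Cd244a, Cd300a and Lgals3 stand out on the left, and Rgs16, Tox2, Irf4, Ctla4 and Nt5e on the right.

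The protein-coding genes with the pattern most like that of each member were sought over the 12 mice by Pearson's r of log2(FPKM + 1). The 2 strains form separate clusters for most of these genes, so that r within each strain (6 mice) is given. The nearest gene to Tigit was Ctla4, with r of 0.96 within B6 and 0.77 within SLE123 mice. For Pdcd1 the nearest were Fam160a1, Ptger2 and Spock2, with r within B6 and SLE123 mice of 0.84 and 0.93, 0.83 and 0.86, and 0.99 and 0.94. Lag3 was nearest to Ptger2 (0.96 and 0.81), Tox to Bcl6, the T follicular helper factor (0.89 and 0.94), Havcr2 to Clic4 (0.99 and 0.95), and Entpd1 to Lpar3 (0.92 and 0.98). Cd200 was nearest to Ica1l (0.89 and 0.80), Cd274 to Neb (0.58 and 0.98), Btla to Fgf2 (0.83 and 0.96) and Cd160 to Atp8a2 (0.71 and 0.87). These are descriptions of 12 libraries that share strain, depth and cell mix.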

How the data were processed

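Poly-A RNA of CD4+ T cells, purified by negative magnetic sorting, was sequenced for 12 mice. The methods also state a separation by CD25, which the titles do not name. The authors deposited FPKM values per Ensembl gene, and the processing notes list CASAVA 1.8, STAR and mm10. The annotation, the counting program and the use of strand are not given in the sources used here. Groups were taken from the sample labels. Symbols and coordinates came from GENCODE M21 (GRCm38), which held 34490 of the 35275 identifiers.

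Values were tested as log2(FPKM + 1) with limma 3.58.1 in R 4.3.3 (lmFit, eBayes with trend). Genes needed a mean over all 12 mice of 0.5 FPKM or more, which left 13115, and Benjamini-Hochberg adjustment covered all of them, with a threshold of 0.05. Each comparison was fitted on the 6 mice concerned and the interaction on all 12. Fragments were recovered from the FPKM values, which were whole multiples of 1 fragment within 0.05 for 100% of the 23230 genes above 0, and voom was run on them as an alternative. A count of 3 fragments on 2000 bases corresponds to 0.0634 to 0.111 FPKM, for counting error only. The fits were tested on simulated data. The 10 genes were named in every comparison, and of each pathway list the up to 3 called genes with the greatest absolute log2 difference. Tcf7, and Pvr, Cd28 and Tox2 in comparisons where this rule did not pick them, were named after their values were seen. The members and lists were chosen with earlier results of these data known. Rescaling to CD4 T cell genes and leaving out both libraries that stood apart were chosen after seeing the data. The authors' comparisons were not used.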

Additional observations from a re-analysis of the deposited data

Results flagged for a closer look

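None of the 10 genes had a treatment effect that differed between the strains by the limma interaction test. For 4 genes of the pathway lists it did, and the difference between the strains is what singled them out. On the log2 scale, the change with antibody in SLE123 less the change in B6 was -1.56 for Klrg1 (adjusted p = 0.00683), -1.46 for Cd244a (adjusted p = 0.00067), -1.41 for Cd300a (adjusted p = 0.00803) and -1.57 for Lgals3 (adjusted p = 0.00642). Cd244a passed the filter on low values only through treated B6 mice, the group whose rise this difference reflects, and it was not tested at a filter of 1 FPKM, so its value is a description. Cd300a was not tested at a filter of 1 FPKM either. All 4 rose in treated B6 mice and did not pass the test in treated SLE123 mice. Klrg1 was at 0.791 to 0.921 FPKM in untreated and 4.54 to 5.4 FPKM in treated B6 mice, and at 1.84 to 3.86 and 2.25 to 3.02 FPKM in SLE123. Cd244a was at 0.132 to 0.28 and 1.72 to 1.92 FPKM in B6, and at 0.356 to 0.686 and 0.212 to 0.261 FPKM in SLE123. Cd300a was at 0.19 to 0.24 and 1.04 to 1.75 FPKM in B6, and at 0.625 to 1.52 and 0.32 to 0.47 FPKM in SLE123. Lgals3 was at 1.18 to 1.7 and 6.41 to 9.46 FPKM in B6, and at 5.12 to 8.67 and 7.33 to 8.57 FPKM in SLE123. Of the myeloid genes 5 of 5 tested, and of the NK cell genes 3 of 6, had a called interaction in the same direction. So had 2 of 8 effector and memory T cell genes. Their part in these values was not tested. Of all tested genes, 3.64% had a called interaction in either direction.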

How the results depend on the processing

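The strain differences of the 10 genes kept their direction under every setting tried, and calls were lost for Btla, Cd160, Cd274 and Havcr2 alone. Among untreated strains Btla lost its call in 5 settings (no filter, TPM, quantile normalization, no immunoglobulin genes, no trend) and without 5 of the 6 mice in turn, Cd274 with TPM (0.30) and Cd160 with CD4 T cell genes (-0.54), and Havcr2 between treated strains under quantile normalization (0.23) and the replicate block (0.39). Of the members called in treated B6 mice, 1 was left with no filter, 1 with all 12 mice in one fit and 0 with the replicate block, and 1 to 2 without single mice. With no filter and with all 12 mice the 1 left was Havcr2, which was itself not tested at a filter of 1 FPKM, and Entpd1 was also lost with quantile normalization (adjusted p = 0.0582) and Tox with CD4 T cell genes (adjusted p = 0.056), where Cd274 was called instead. With the replicate block, the list genes that the rule named in treated B6 mice lost their calls too. Treated and untreated B6 mice share only the replicate numbers 3 and 5, so the treatment effect in that fit rests on those mice alone. In the interaction 1 member was called after rescaling to TPM and 0 to 3 without single mice.

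The number of all genes called moved more. In treated B6 mice it was 1948, against 1134 with no filter, 815 with all 12 mice in one fit, 0 with the replicate block, 4407 after rescaling to CD4 T cell genes and 675 to 1393 without single mice. In treated SLE123 mice it was 5, against 25 with TPM, 3 with voom, 53 with all 12 mice and 1 to 7 without single mice. It was 3672 to 6469 between untreated strains without single mice (5621 with all), 3414 between treated strains with the replicate block (6836 without), and in the interaction 478, against 276 without immunoglobulin genes, 34 with the replicate block and 205 to 2917 without single mice, the highest being without untreated SLE123 replicate 1. The causes were not tested. Deviations from the group means correlated between -0.161 and 0.266 for same-numbered mice and between -0.327 and 0.211 for other pairs. With 3 mice a group, these values cannot decide whether the numbers pair the samples, and the main fits used no pairing. No block could be fitted between untreated strains, which share 1 number.

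The split of higher and lower genes between untreated strains was 2990 and 2631, against 1912 and 5989 with TPM, 2360 and 4570 with quantile normalization, 3364 and 1641 without immunoglobulin genes and 3038 and 937 with CD4 T cell genes. Between treated strains it was 3881 and 2955, against 2444 and 4487, 2643 and 4821, 5095 and 2012, and 3529 and 3491 with median centring in place of the last. In treated B6 mice it was 1146 and 802, against 996 and 1051 with quantile normalization and 4193 and 214 with CD4 T cell genes. The interaction had 166 and 312, against 92 and 356 with median centring, 61 and 215 without immunoglobulin genes and 16 and 374 with CD4 T cell genes. The median of all genes between untreated strains was -0.343 with TPM, -0.157 with quantile normalization and 0.124 with CD4 T cell genes.

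Differences that turned sign were all uncalled. In treated B6 mice Pdcd1 was 0.02 with the replicate block, 0.11 with CD4 T cell genes and -0.19 to 0.06 without single mice, Lag3 0.23, 0.09 and -0.24 to 0.13, Tigit -0.23 to 0.23 without single mice, Cd160 0.02 and Btla 0.01 with CD4 T cell genes. In treated SLE123 mice Lag3 was -0.00094 with voom and -0.07 to 0.20 without single mice, Tox 0.18 with TPM, 0.09 without both libraries that stood apart and -0.13 to 0.09 without single mice, and Entpd1 -0.13 to 0.38 without single mice. In the interaction Lag3 was -0.18 with the replicate block, -0.09 with CD4 T cell genes and -0.09 to 0.28 without single mice, Tigit -0.01 with CD4 T cell genes and -0.01 to 0.45 without single mice, and Entpd1 0.09 without both libraries. On log2(FPKM + 1) Havcr2 rose by 0.57 in treated B6 mice, with a pseudocount of 0.1 by 2.13 and with voom by 3.69.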
